A study of Mus musculus with 15 samples.

Results

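The genes described here are 28 genes of cholesterol and fatty acid synthesis in subcutaneous Renca tumors with and without *Pbrm1*. They were taken by gene symbol from a list of the pathway's enzymes and regulators. All 28 were found among the 18279 genes of the deposited table, and all 28 were above 0 in each of the 15 tumors. Renca is a renal carcinoma cell line from BALB/c mice, and *Pbrm1* encodes a subunit of the PBAF chromatin remodeling complex. RNA was sequenced from 5 control tumors (tumors 1 to 5), 5 tumors of *Pbrm1* knockout clone 4 (tumors 6 to 10) and 5 tumors of *Pbrm1* knockout clone 18 (tumors 11 to 15), grown in female Balb/c mice bought at 4 to 6 weeks of age. The sample labels call the control cells parental, whereas the series title and the study's methods call them control knockout cells, transfected with a control CRISPR/Cas9 plasmid. The knockout cells received *Pbrm1* CRISPR/Cas9 plasmids and a repair plasmid that carries puromycin resistance and a red fluorescent protein, and were sorted as single cells. Each knockout group is therefore a single clone, the control is a single line, and p-values measure the spread between tumors of these lines. Some mice of the study received a PD-1 antibody, and no label says whether the hosts of these tumors did. Tumors were taken at 1000 mm3, at ulceration or at distress of the animal.

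Cholesterol is built from acetyl-CoA through mevalonate, farnesyl diphosphate, squalene and lanosterol, and fatty acids are built from the same acetyl-CoA by acetyl-CoA carboxylase and fatty acid synthase. Most genes of both routes are targets of the sterol regulatory element binding proteins (SREBPs), membrane-bound transcription factors that are released from the endoplasmic reticulum by proteolysis when sterols are scarce and retained there by INSIG proteins when sterols are plentiful. SREBP-2 acts mainly on cholesterol genes and SREBP-1 mainly on fatty acid genes. Growing tumor cells use both products for membranes, and macrophages and fat cells within a tumor also make them.

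Each tumor gave between 32924414 and 49099168 reads on genes, recovered from the deposited normalized counts. A normalized count is the number of reads on a gene divided by a size factor of its tumor. The targeted gene *Pbrm1* (chr14:31019138-31121592, mm10) ran from 7452 to 9871 normalized counts in the control tumors, from 2484 to 3068 in clone 4 and from 2572 to 3138 in clone 18, without overlap, and the knockout mean was 31.0% of control (log2 difference -1.69, SE 0.07, adjusted p = 2.94e-11). Part of its exons overlap *Gnl3* on the other strand. The renal epithelial keratins *Krt8* and *Krt18* were abundant in all 15 tumors, with *Krt8* between 43750.3 and 65692 normalized counts. Transcripts of host cells are counted together with those of the tumor cells, so that fewer cells of a type and less RNA per cell cannot be told apart.

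Promoter windows of the RefSeq annotation on GRCm38.p6, from 250 bases before to 50 bases after the transcription start, were matched by symbol for 22 of the 28 genes (27 windows). *Stard4*, *Fdps*, *Fdft1*, *Sqle*, *Scd1* and *Scd2* had none. Both strands were searched for the core of the sterol regulatory element, TCACNCCAC, for the CCAAT box bound by NF-Y and for the GC box GGGCGG bound by SP1, which are known partners of SREBPs at lipid promoters. No searched motif contains another. The element core was present in 1 of 22 genes, *Hmgcs1*, against 1.24% of all 32851 windows and 1.44% of the genes with a window. A CCAAT box was present in 19 of 22 genes, against 41.1% of the 27025 genes with a window, and a GC box in 18 of 22 genes, against 38.2%. The 30-base stretches below show the sterol element core of *Hmgcs1* and, for genes of the results that follow, a CCAAT box of *Insig1*, *Srebf2*, *Mvd* and *Fasn*. *Acaca*, also lower in those results, had a window that held none of the motifs searched. Capitals mark the motif, read 5′ to 3′ on the strand of the gene, on which ATTGG is the CCAAT box of the opposite strand.
Hmgcs1, chr13:119690204-119690233, plus strand: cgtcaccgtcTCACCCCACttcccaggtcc
Insig1, chr5:28071184-28071213, plus strand: cgccctcctcccATTGGctccggcggcctc
Srebf2, chr15:82147122-82147151, plus strand: cttcgcgcgccgATTGGctaatgcaagcct
Mvd, chr8:122443432-122443461, minus strand: ccggccagcgggCCAATcatatggcagcgc
Fasn, chr11:120824620-120824649, minus strand: ccgcgcgccgccATTGGgccaccgagaacg
A match describes these letters only and was not tested against expression.

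The comparison of the 10 *Pbrm1* knockout tumors with the 5 control tumors asked whether lipid synthesis transcripts differ without *Pbrm1*. In it, 9 of the 28 genes were lower at an adjusted p under 0.05 and none was higher by limma, edgeR or DESeq2, with 14 lower and 1 higher at an unadjusted p under 0.05. The shares of all genes called, here and in later comparisons, belong to the adjusted threshold, and none is given for unadjusted counts. The 9 genes were the regulators *Srebf2* and *Insig1*, the sterol carrier *Stard4*, the sterol enzymes *Mvd*, *Fdps*, *Fdft1* and *Sqle*, and the fatty acid enzymes *Acaca* and *Fasn*. The lower genes make up 32.1% of the list, against 12.9% of all 18250 genes tested that were lower, and 9.23% of all genes tested were higher. Over all genes the fit gave 2356 lower and 1684 higher, and quantile normalization gave 1971 lower and 2265 higher. Lipid synthesis genes are abundant, and among genes with a mean of at least 1000 normalized counts 9 of 25 members were lower, against 15.5% of all 7725 such genes. The median log2 difference of the 28 genes was -0.22, against -0.02 over all genes tested. Individual differences, on the scale of log2(normalized count + 1), ran from -0.64 for *Fdps* to 0.22 for *Scd1*, so that no member differed as much as the targeted gene. *Fdps* and *Sqle* were the 2 members whose knockout and control tumors did not overlap, against 4.87% of all genes tested that lay lower without overlap, and no member lay higher without overlap, against 3.11%.

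**Figure D1:**
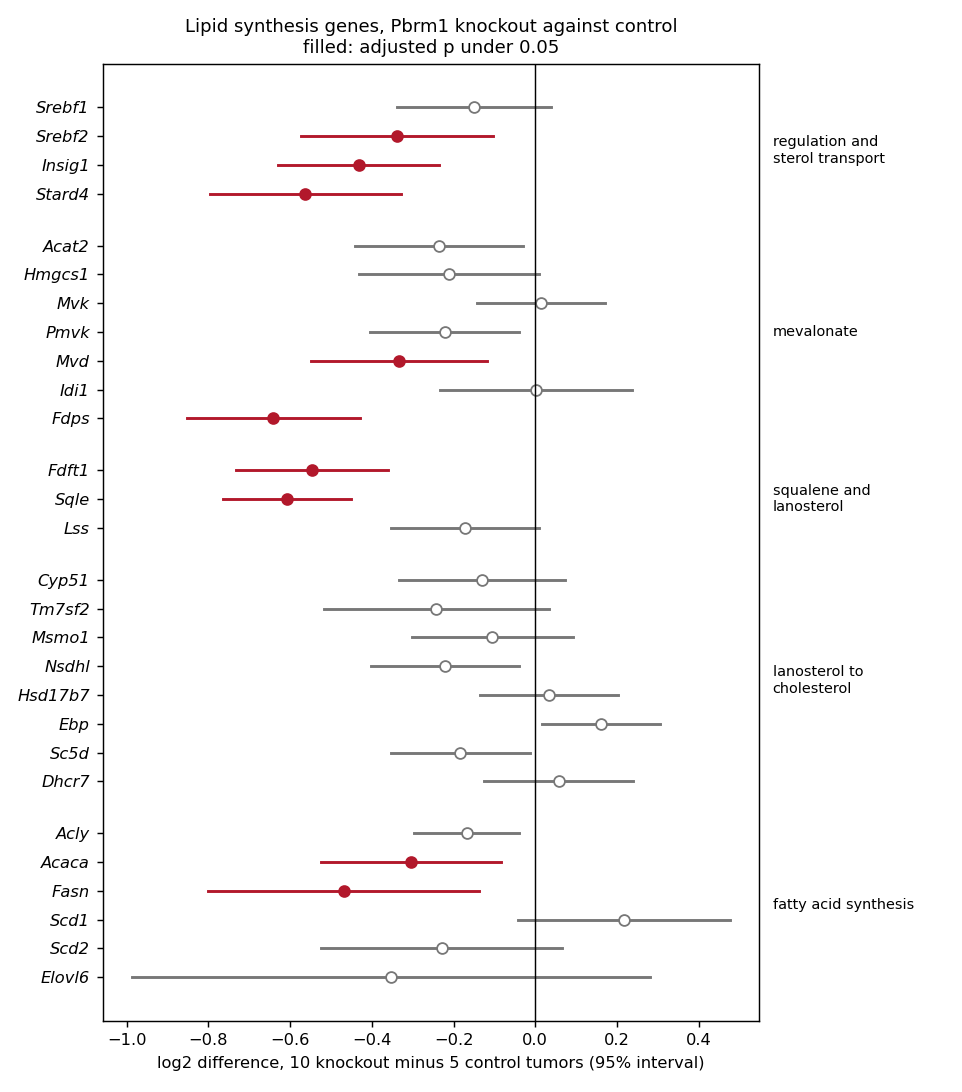
Difference between 10 *Pbrm1* knockout and 5 control tumors for each of the 28 genes in pathway order, in log2 units with the 95% interval from the fit across all genes. Filled red points passed an adjusted p of 0.05, and all 9 lie left of 0, the lowest being *Fdps* at -0.64, *Sqle* at -0.61 and *Stard4* at -0.56.

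Among the regulators, the lowest value relative to control was that of *Stard4*, which carries sterols through the cytosol. The control tumors held 2829, 3372, 2647, 2235 and 2612 normalized counts, the tumors of clone 4 held 1819, 1621, 2159.5, 2352 and 2279, and those of clone 18 held 1562, 1865, 1762, 1531 and 1639. All clone 18 tumors lay below each control tumor, whereas tumors 9 and 10 of clone 4 lay just above the lowest control tumor. Knockout tumors averaged 67.9% of control (log2 difference -0.56, SE 0.11, adjusted p = 0.00152, exact permutation p = 0.000999).

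*Insig1* (chr5:28071363-28078662), which encodes the protein that retains SREBPs and is itself one of their targets, was lower in knockout tumors by -0.43 on the log2 scale (SE 0.09, adjusted p = 0.00312, exact permutation p = 0.00167). Its normalized counts were 9023, 8328, 8396, 7966 and 7673 in the control tumors, 5510.1, 5950.4, 6946, 7707 and 6028 in clone 4, and 6272, 6722, 4569.6, 5388 and 6752 in clone 18. Of the 10 knockout tumors, 9 lay below each control tumor, the exception being tumor 9 of clone 4. Among the 4 regulators, *Insig1* had the narrowest spread relative to its mean in the control tumors.

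*Srebf2* (chr15:82147181-82205379), the gene of SREBP-2, had 9436, 10248, 7788, 6077 and 9252 normalized counts in the control tumors. The counts were 6819.7, 7250.0, 7971, 5649 and 5924 in clone 4 and 5639, 6054, 7449, 7622 and 6727 in clone 18. All 10 knockout tumors lay below the control mean of 8559.9, but control tumors 3 and 4 lay within the knockout range. The log2 difference was -0.34 (SE 0.11, adjusted p = 0.0376, exact permutation p = 0.018), and it lost its call without any of tumors 1, 2, 5, 9, 10, 11 and 12, at adjusted p values from 0.0561 to 0.127. The median gene of chromosome 15 was itself lower by -0.11, and with the median of each chromosome set to 0 the log2 difference of *Srebf2* was -0.24 (adjusted p = 0.125).

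*Srebf1*, the gene of SREBP-1, did not pass the test. Control tumors averaged 6398 ± 1151 normalized counts, those of clone 4 5611 ± 237 and those of clone 18 5815 ± 729 (SD, n = 5 each), with a log2 difference of -0.15 and a 95% interval from -0.34 to 0.04. Control tumor 2 had the highest count of all 15 tumors, 8169.8. Some *Srebf1* exons overlap those of *Rai1* on the other strand, and whether the counting used strand is not given in the sources used here.

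In the mevalonate segment, 2 of 7 genes were lower, *Fdps* and *Mvd*, and both act near its end. *Fdps* (chr3:89093588-89101959) encodes farnesyl diphosphate synthase, whose product feeds sterols, dolichol and protein prenylation. Control tumors held 1961, 1728, 1659, 1481 and 1764 normalized counts. Tumors of clone 4 held 843, 905, 1257, 1295 and 1022, and those of clone 18 held 1151, 1294, 1207, 1048 and 1059. The highest knockout tumor, 1295, lay below the lowest control tumor, 1481. Knockout tumors averaged 64.5% of control (log2 difference -0.64, SE 0.10, adjusted p = 0.000208), and the exact permutation p of 0.000333 is the smallest that 5 against 10 tumors can give. Exons of *Fdps* overlap the gene model *Gm43738* on the same strand, and the study's methods do not say how reads on the shared part were treated.

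*Mvd* (chr8:122433601-122443422), mevalonate diphosphate decarboxylase, was measured at 2168, 1939, 1988, 1561 and 1778 normalized counts in the control tumors, at 1279.7, 1508, 1681, 2058 and 1559.5 in clone 4, and at 1437, 1328, 1239.6, 1443 and 1507 in clone 18. Tumors 8 and 9 of clone 4 lay within the control range and the other 8 knockout tumors below it. The log2 difference was -0.33 (SE 0.10, adjusted p = 0.0265, exact permutation p = 0.0127), and the adjusted p was 0.0891, 0.0625 and 0.0679 without control tumor 1, 2 or 3.

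The other 5 genes of the segment did not pass the test. *Acat2*, the cytosolic thiolase, had a log2 difference of -0.24 (95% interval -0.44 to -0.03, adjusted p = 0.097). *Hmgcs1*, the synthase whose promoter is printed above, had -0.21 (-0.43 to 0.01, adjusted p = 0.167), and *Pmvk*, phosphomevalonate kinase, had -0.22 (-0.40 to -0.04, adjusted p = 0.0768). *Mvk*, mevalonate kinase, and *Idi1*, isopentenyl diphosphate isomerase, had differences of 0.01 (-0.14 to 0.17) and 0.00 (-0.23 to 0.24), so that a decrease of the size seen for *Fdps* lies outside both intervals. Neighbouring steps of the same route therefore had different values, with *Idi1* at 99.7% and *Fdps* at 64.5% of the control mean.

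From farnesyl diphosphate onward, the first committed sterol steps were both lower in knockout tumors. *Sqle* (chr15:59315077-59331192) encodes squalene epoxidase, a rate-limiting enzyme of the sterol branch. Control tumors held 14284, 14681, 13319, 12756 and 11770.1 normalized counts, tumors of clone 4 held 7898, 8881, 9751, 10002 and 9091, and tumors of clone 18 held 8481, 8848, 7273, 8129 and 9474. The groups were separated by a gap between 10002 and 11770.1. The log2 difference of -0.61 had the smallest adjusted p of the list (SE 0.07, adjusted p = 1.92e-05, exact permutation p = 0.000333). *Sqle* also lies on chromosome 15, and its log2 difference remained between -0.65 and -0.50 under all 26 alternative settings.

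*Fdft1* (chr14:63145150-63179578) encodes squalene synthase. Its normalized counts were 3034, 3511, 3253, 2848 and 2467 in control tumors, 1796, 1910.2, 2276, 2494 and 2289 in clone 4, and 1903, 2234, 1852, 1935 and 1974 in clone 18. Only tumor 9 of clone 4 reached the lowest control tumor. Knockout tumors averaged 68.4% of control (log2 difference -0.55, SE 0.09, adjusted p = 0.000272, exact permutation p = 0.000666). *Fdft1* shares chromosome 14 with *Pbrm1*, where the median gene was at -0.06, and its exons overlap those of *Ctsb* on the other strand.

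*Lss*, lanosterol synthase, closes the sterol ring after *Sqle*. Control tumors averaged 4119 ± 350.3 normalized counts, those of clone 4 3834 ± 359 and those of clone 18 3512 ± 495, and its log2 difference of -0.17 did not pass the test (95% interval -0.35 to 0.01, adjusted p = 0.174).

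None of the 8 genes from lanosterol to cholesterol passed the limma test in the pooled comparison, and at an unadjusted p under 0.05 there were 2 lower and 1 higher. Of these, 5 had negative differences: *Cyp51*, the lanosterol demethylase, at -0.13, *Msmo1*, the methylsterol oxygenase, at -0.11, *Nsdhl*, the sterol dehydrogenase, at -0.22, *Sc5d*, the sterol desaturase, at -0.18, and *Tm7sf2*, a sterol reductase, at -0.24. The lowest adjusted p of the 5 was 0.0758, for *Nsdhl*. *Hsd17b7*, a keto reductase, *Dhcr7*, the last reductase of the Kandutsch-Russell branch, and *Ebp*, the sterol isomerase, had differences of 0.03, 0.06 and 0.16. The 95% interval of *Dhcr7* ran from -0.13 to 0.24 and that of *Ebp* from 0.02 to 0.30 (adjusted p = 0.104). The median log2 difference was -0.12 for these 8 genes and -0.55 for the 3 genes of squalene and lanosterol synthesis. *Cyp51* exons overlap those of *Akap9* on the other strand and *Tm7sf2* exons those of *Vps51* on the same strand.

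Of the 6 fatty acid genes, *Fasn* and *Acaca* were lower in knockout tumors. *Fasn* (chr11:120805846-120824547), fatty acid synthase, had 17714, 20771, 12461, 10006 and 12859 normalized counts in the control tumors. It had 10629.7, 13555, 11019, 9379 and 8082 in clone 4 and 7736, 11225, 9567, 13712 and 9819 in clone 18. All 10 knockout tumors lay below the control mean of 14762, but 5 of them lay within the control range, and the mean was raised by control tumors 1 and 2. The log2 difference was -0.47 (SE 0.16, adjusted p = 0.0404, exact permutation p = 0.0223).

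*Acaca* (chr11:84129672-84401651), acetyl-CoA carboxylase, makes the malonyl-CoA that *Fasn* extends. Control tumors held 9010.2, 11075, 7703, 6882 and 7688 normalized counts, tumors of clone 4 held 6692, 8073, 6998, 6859 and 5648, and those of clone 18 held 6023, 7238, 5626, 7773 and 7181. As for *Fasn*, 5 knockout tumors lay within the control range and tumor 2 was highest. The log2 difference was -0.30 (SE 0.10, adjusted p = 0.0445, exact permutation p = 0.019).

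Both calls depended on single tumors. Without control tumor 2, the log2 difference of *Fasn* was -0.33 (adjusted p = 0.149) and that of *Acaca* -0.20 (adjusted p = 0.164). The call of *Fasn* was also lost without any of tumors 1, 5, 6, 9, 10, 11, 13 and 15, at adjusted p values from 0.0502 to 0.128, and that of *Acaca* without any tumor other than 4, 7 and 14, with the highest value, 0.164, without tumor 2. Control tumor 2 was also the highest of all 15 tumors in the fat cell markers *Adipoq*, *Plin1*, *Cidec*, *Retn*, *Cfd* and *Pck1*, and not in the others. In tumor 2, *Plin1* was at 15.9 normalized counts, against at most 9 elsewhere. *Retn* was at 41.4, against at most 5.6, and *Pck1* at 165.6, against at most 89. *Adipoq*, the adipocyte hormone adiponectin, was at 66.1 normalized counts there and between 0 and 19.3 in the other 14 tumors, and *Cfd*, adipsin, was at 424 there and between 0 and 118 elsewhere. *Cidec* was at 68.7 in tumor 2 and 62.8 in tumor 13, and *Car3* was higher in tumor 13, at 240.8 against 188.5. *Fabp4* and *Lpl* were highest in tumor 10, at 1406.9 and 1122.9 against 350.5 and 663.2 in tumor 2, and *Lep* was highest in control tumor 1. The summed level of the 10 fat cell markers ran from 930.1 to 1996 in control tumors, from 547 to 2611 in clone 4 and from 1271 to 1865 in clone 18, with *Lpl* and *Fabp4* highest. Their part in the fatty acid results was not tested.

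The remaining fatty acid genes did not pass the pooled test. *Acly*, which cleaves citrate to acetyl-CoA for both routes, had a log2 difference of -0.17 (95% interval -0.30 to -0.04, adjusted p = 0.0589), with all 10 knockout tumors below the control mean. *Scd2*, a stearoyl-CoA desaturase, had -0.23 (-0.52 to 0.07), and *Elovl6*, the elongase of palmitate, had -0.35 (-0.99 to 0.28). *Scd1*, the other desaturase, had 0.22 (-0.04 to 0.48). *Elovl6* was measured from only 24 to 130 reads per tumor, which left the widest interval of the list. Per kilobase of exon, *Scd2* was the most abundant member in control tumors, at 7965 normalized counts per kilobase, followed by *Insig1* at 2676 and *Sqle* at 2409, and *Elovl6* was the least abundant at 13.0. *Scd1* and *Scd2* are close paralogs, and the study's methods do not say how reads that match both were treated.

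**Figure D2:**
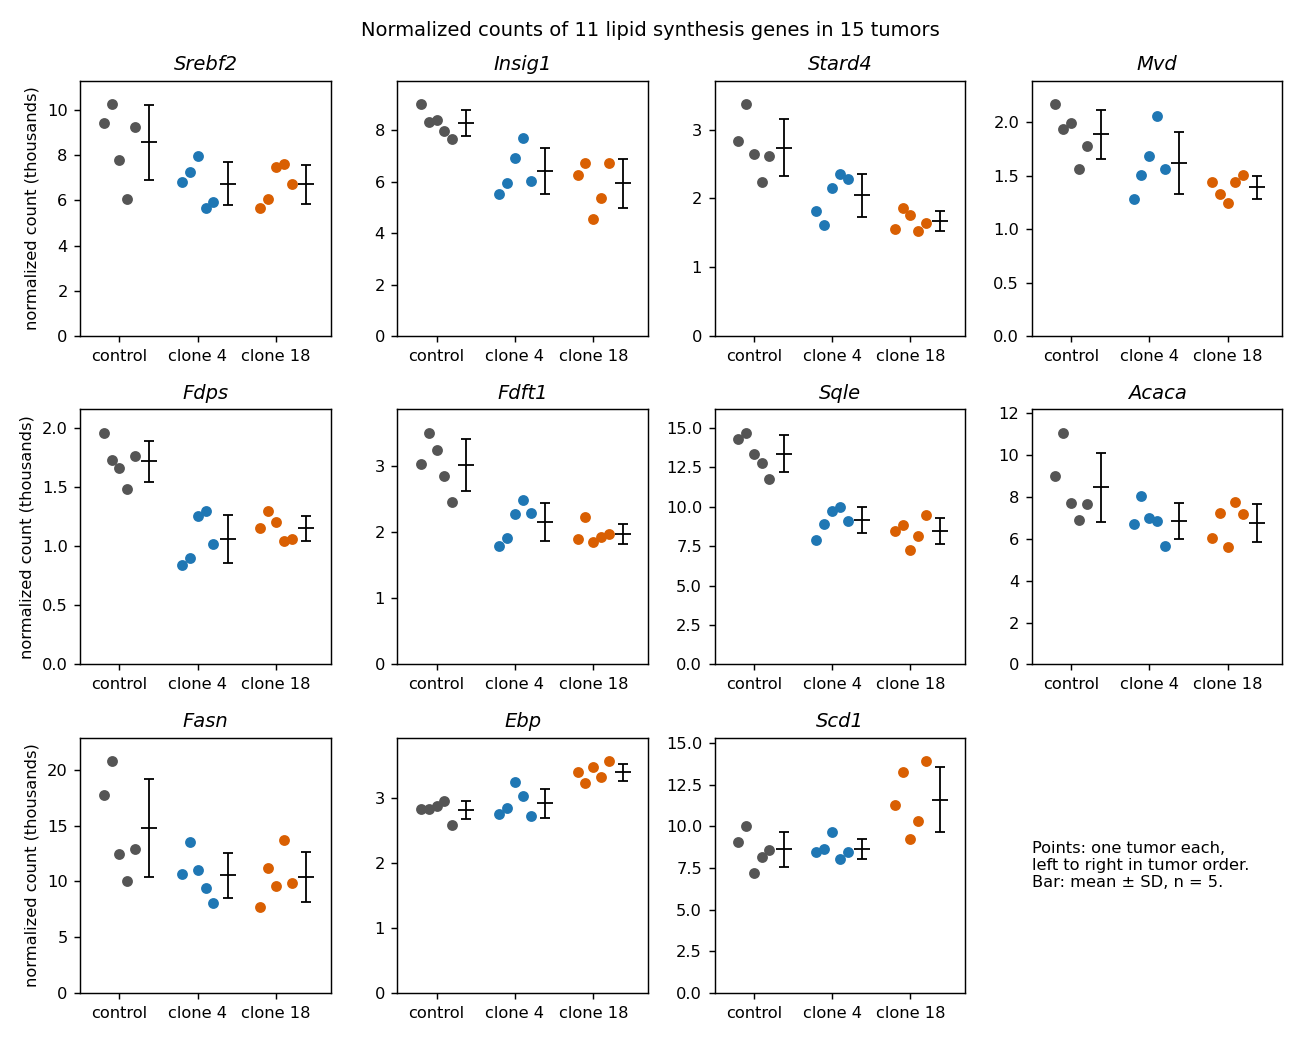
Normalized counts, divided by 1000, of the 9 genes that were lower in knockout tumors and of *Ebp* and *Scd1*, which differed between the clones, with each point a tumor and bars the mean ± SD of 5 tumors. *Fdps* and *Sqle* show no overlap between control and knockout tumors, *Fasn* overlaps widely, and *Ebp* and *Scd1* are highest in clone 18.

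Each clone was then compared with the same 5 control tumors, which the comparisons share. In clone 4, 6 genes were lower, *Insig1*, *Stard4*, *Acat2*, *Fdps*, *Fdft1* and *Sqle*, or 21.4% of the list, against 10.0% of all genes tested, and none was higher by limma, edgeR or DESeq2, against 6.79%, with 9 lower and 0 higher at an unadjusted p under 0.05. In clone 18, 10 genes were lower, *Insig1*, *Stard4*, *Hmgcs1*, *Mvd*, *Fdps*, *Fdft1*, *Sqle*, *Tm7sf2*, *Sc5d* and *Acly*, or 35.7%, against 14.2% of all genes tested, and *Ebp* and *Scd1* were higher, against 10.4%. The median log2 difference of the 28 genes was -0.14 in clone 4 and -0.25 in clone 18, against -0.01 and -0.02 over all genes tested. In clone 18, 10 genes lay below each control tumor without overlap, against 9.82% of all genes tested, and 1 gene, *Ebp*, lay above, against 7.24%. The 10 below were those called lower, except that *Msmo1*, not called (adjusted p = 0.110), stood in place of *Hmgcs1*, which overlapped. In clone 4, 2 genes, *Fdps* and *Sqle*, lay below without overlap, against 8.20%, and 0 above, against 5.80%.

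The 5 genes lower in both clones were *Insig1*, *Stard4*, *Fdps*, *Fdft1* and *Sqle*. Both comparisons use the same control tumors, and the share of all genes lower in both clones is not given. This count alone therefore does not set the members apart. *Fdps* was at 61.9% of control in clone 4 and 67.0% in clone 18, with log2 differences of -0.71 and -0.58 (adjusted p = 0.000345 and 0.00145). *Sqle* was at 68.3% and 63.2% (log2 differences -0.55 and -0.66, adjusted p = 0.000178 and 2.58e-05), and *Fdft1* at 71.2% and 65.5% (-0.49 and -0.60, adjusted p = 0.00251 and 0.00035). *Stard4* was at 74.7% and 61.0% (-0.42 and -0.70, adjusted p = 0.0144 and 0.000237) and *Insig1* at 77.7% and 71.8% (-0.37 and -0.49, adjusted p = 0.0224 and 0.00283). For *Srebf2*, *Acaca* and *Fasn* the differences of the clones were close to each other, at -0.34 and -0.34, -0.29 and -0.31, and -0.46 and -0.48, but with 5 tumors a clone none of them passed the test in either clone.

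Whether the clones differed was tested directly. Clone 18 exceeded clone 4 in 2 genes, *Ebp* and *Scd1*, or 7.14% of the list, against 2.49% of all genes tested that were higher, and no member was lower by limma, edgeR or DESeq2, against 2.13%, with 4 lower at an unadjusted p under 0.05. *Ebp* (chrX:8185329-8193512) had 2835, 2836, 2885, 2952 and 2585 normalized counts in control tumors, 2752, 2846, 3254, 3038 and 2724 in clone 4 and 3397, 3229, 3483, 3323 and 3570.1 in clone 18. All 5 tumors of clone 18 lay above each control tumor, and 4 of them above each tumor of clone 4. Clone 18 exceeded clone 4 by 0.22 on the log2 scale (SE 0.06, adjusted p = 0.0411, exact permutation p = 0.0159) and the controls by 0.27 (SE 0.06, adjusted p = 0.00306), whereas clone 4 differed from the controls by 0.05 (95% interval -0.07 to 0.18).

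*Scd1* (chr19:44394455-44407879), which desaturates stearate and palmitate, had 9075, 10030.0, 7190.4, 8182 and 8592 normalized counts in control tumors and 8439.7, 8635, 9636, 8060.1 and 8468 in clone 4. In clone 18 it had 11259, 13243, 9219, 10341 and 13914, and tumor 13 alone lay within the range of the other groups. Clone 18 exceeded clone 4 by 0.41 (SE 0.11, adjusted p = 0.0339, exact permutation p = 0.0159) and the controls by 0.42 (SE 0.11, adjusted p = 0.00772), while clone 4 differed from the controls by 0.01 (95% interval -0.21 to 0.23). The paralog *Scd2* stood at 38995 ± 8149.7 in clone 18 and 35743 ± 6884 in clone 4, a difference of 0.12 with an interval from -0.22 to 0.46. The ratio of *Scd1* to *Scd2* ran from 0.18 to 0.22 in control tumors, from 0.19 to 0.31 in clone 4 and from 0.27 to 0.34 in clone 18. With each tumor left out in turn, the adjusted p of the clone difference reached 0.103 for *Ebp* (without tumor 6) and 0.0857 for *Scd1* (without tumor 15), and either call was lost without tumors 6, 7, 10, 11 and 15. That of *Ebp* was also lost without tumors 1, 3, 13 and 14, and that of *Scd1* without tumors 9 and 12. Within clone 18, the fat cell markers *Adipoq*, *Cidec*, *Cfd*, *Car3* and *Pck1* were highest in tumor 13. *Plin1* and *Retn* were highest in tumor 15, *Lpl* in tumor 12, *Fabp4* in tumor 14 and *Lep* in tumor 11. In tumors 11 to 15, *Adipoq* was at 3.1, 0, 17.0, 3.0 and 7.8 normalized counts and *Cidec* at 2, 0, 62.8, 0 and 3.4. *Lpl* was at 958.2, 1096.3, 846.9, 512.2 and 712, and *Fabp4* at 349, 500.8, 477.8, 638.5 and 410.9. The part of the fat cell markers in the *Scd1* values was not tested.

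The other genes called in only a single clone did not pass the test of clone 18 against clone 4. *Acat2* was lower than control in clone 4 by -0.34 (adjusted p = 0.03) and stood at -0.13 in clone 18, a difference of 0.21 between the clones with a 95% interval from -0.01 to 0.43. *Tm7sf2* stood at -0.07 in clone 4 and was lower by -0.41 in clone 18 (adjusted p = 0.0275), a difference of -0.34 with an interval from -0.61 to -0.07 (adjusted p = 0.16, exact permutation p = 0.00794). Its counts were low, 258, 284, 266, 356 and 266 in clone 4 against 227, 228, 191, 230.5 and 249.7 in clone 18, and the clones did not overlap. It was the 1 member that lay lower in clone 18 than in clone 4 without overlap, against 2.88% of all genes tested, and 0 members lay higher, against 2.64%. *Mvd* was lower in clone 18 by -0.43 (adjusted p = 0.00792), *Acly* by -0.24 (adjusted p = 0.0109), *Hmgcs1* by -0.33 (adjusted p = 0.0374) and *Sc5d* by -0.26 (adjusted p = 0.0417), and the exact permutation p was 0.00794 for *Mvd*, *Acly* and *Sc5d* and 0.0556 for *Hmgcs1*. Without tumor 13 of clone 18, which held the lowest *Hmgcs1* count of all tumors, 4098, the adjusted p was 0.0918 for *Hmgcs1*, 0.107 for *Sc5d* and 0.0652 for *Tm7sf2*. The calls of *Hmgcs1* and *Sc5d* were also lost without any of tumors 1, 2, 3 and 14, that of *Sc5d* without tumor 8 and that of *Tm7sf2* without tumor 1 or 4. *Acat2* lost its call in clone 4 without any of tumors 1, 2, 3, 6, 7 and 10, with adjusted p between 0.0623 and 0.0747, and *Insig1* lost its call in clone 4 without tumor 1, 6 or 7, with adjusted p between 0.0519 and 0.0643.

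**Figure D3:**
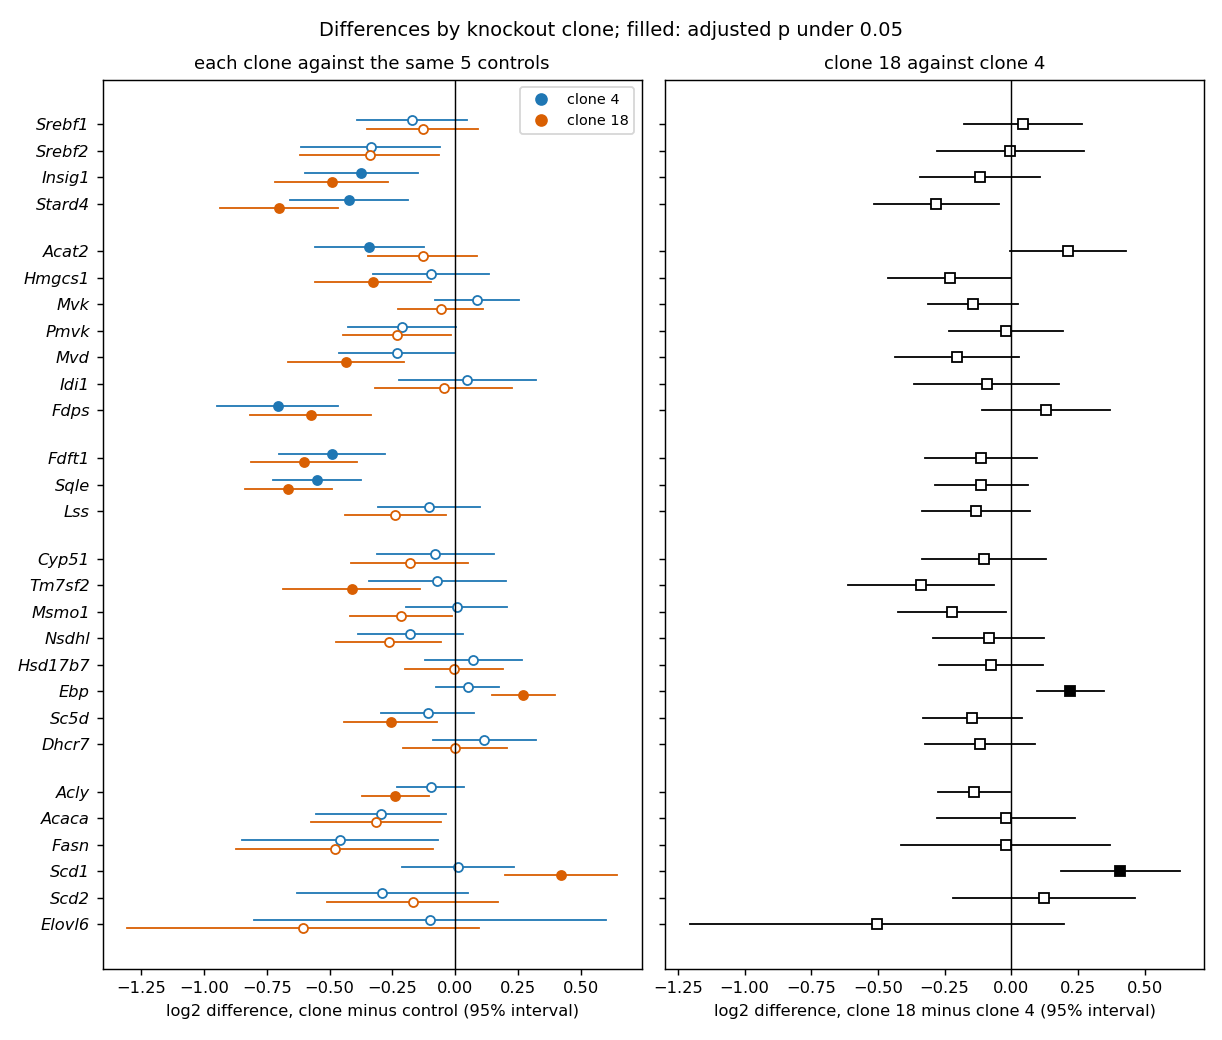
Left, log2 difference of clone 4 (blue) and of clone 18 (orange) from the same 5 control tumors for each gene, and right, clone 18 minus clone 4, all with 95% intervals and with filled symbols at an adjusted p under 0.05. *Insig1*, *Stard4*, *Fdps*, *Fdft1* and *Sqle* are filled for both clones, and *Ebp* at 0.22 and *Scd1* at 0.41 are the filled symbols on the right.

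Tumors of a group also differed among themselves, and in several genes at a time. Control tumor 1 was the highest of its group in 13 of the 18 sterol enzymes, and tumor 2 was highest in 4 of the 6 fatty acid genes. In clone 4, tumor 9 was highest in 13 of the 18 sterol enzymes, with a median of 0.23 above its group on the log2 scale. In clone 18, tumor 15 was highest in 10 of the 18 sterol enzymes, and tumor 13 was lowest in 12 of these and in 5 of the 6 fatty acid genes. Relative to the control mean, the median of the 18 sterol enzymes ran from -0.23 to 0.06 in the tumors of clone 4 and from -0.42 to -0.13 in those of clone 18, against -0.12 to 0.19 among the controls themselves. The tumor with the fewest reads, 32924414, was tumor 13. Without control tumors 1 and 2, a setting chosen after seeing the data, *Insig1*, *Stard4*, *Fdps*, *Fdft1* and *Sqle* remained lower in the pooled comparison and *Srebf2*, *Mvd*, *Acaca* and *Fasn* did not, the log2 difference of *Fasn* being -0.18. Without tumor 13 as well, *Stard4* also lost its call, with a log2 difference of -0.43 and an adjusted p of 0.0513. Without control tumors 1 and 2, *Fdps*, *Fdft1* and *Sqle* remained lower in clone 4, and the same 3 genes with *Insig1* and *Stard4* in clone 18.

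**Figure D4:**
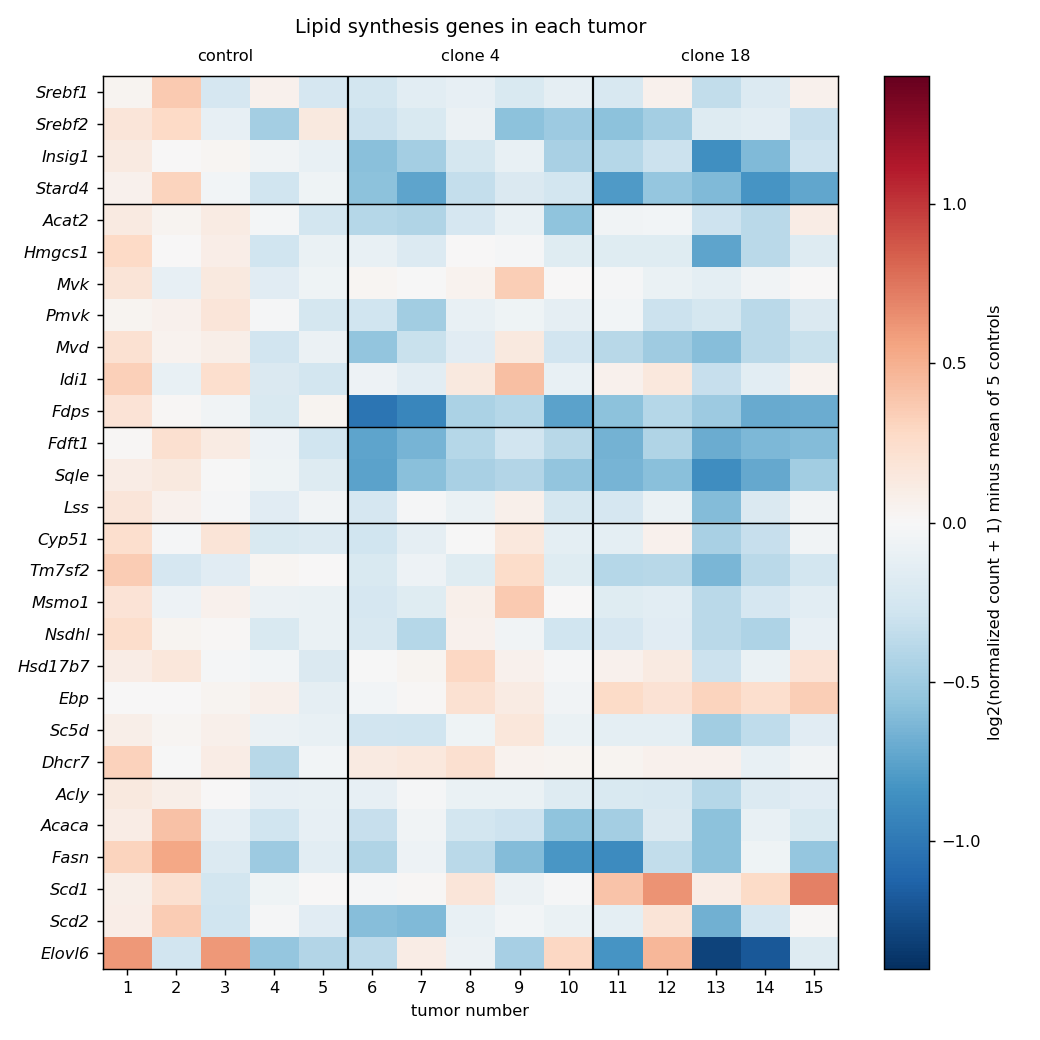
Deviation of each gene in each tumor from the mean of the 5 control tumors, in log2 units, with red above and blue below, genes in pathway order and black lines between groups. *Fdps*, *Fdft1* and *Sqle* are blue across all 10 knockout tumors, *Ebp* and *Scd1* are red across clone 18, and tumor 13 is blue for most genes.

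Related genes outside the list were counted in the same fit. Among 10 other isoprenoid and sterol enzymes 2 were higher, *Acat1*, the mitochondrial thiolase, by 0.23 and *Coq2*, of coenzyme Q synthesis, by 0.21. Of 18 other genes of fatty acid synthesis, elongation and desaturation, 4 were lower and 2 higher. Among them were the elongase *Elovl7*, by -2.31, the desaturase *Fads3*, by -0.46, the malic enzyme *Me1*, by 0.43, and the acetyl-CoA synthetase *Acss2*, by 0.27. With each clone alone against the controls, *Coq2* passed only in clone 4 and *Acss2* only in clone 18. *Elovl7* averaged 516 ± 45.6 normalized counts in control tumors, against 285 ± 70.1 for clone 4 and 41.3 ± 18.3 for clone 18, and clone 18 was lower than clone 4 by -2.85. *Me1*, which supplies NADPH to fatty acid synthesis, was higher in 10 of 10 knockout tumors than in each control tumor. Of all genes tested, 3.11% lay higher without overlap.

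Of 11 genes of fatty acid activation and triglyceride synthesis, 5 were lower. These include *Dgat2*, the last acyltransferase of triglyceride synthesis, by -1.33, and the phosphatidate phosphatase *Lpin1*, by -0.90. They also include the glycerol-phosphate acyltransferase *Gpam*, by -0.56, and the acyl-CoA synthetase *Acsl3*, by -0.49. In each of these 4 genes all 10 knockout tumors lay below each control tumor, against 4.87% of all genes tested. The 4 are named because they had the largest called differences of their list, so the share over all genes is not a like comparison. Separation over the whole list of 11 is not given. *Dgat2* averaged 1341 ± 813 normalized counts in control tumors against 431 ± 93.1 in clone 4 and 496 ± 38.2 in clone 18. Among 7 genes of sterol efflux and LXR, *Mylip*, a ligase for lipoprotein receptors, was lower by -0.51 and the cholesterol exporter *Abca1* higher by 0.40. Among 12 genes of lipid uptake and sterol transport, *Gramd1c* (-2.13) and *Scarb1* (-0.26) were lower and *Lipa*, lysosomal acid lipase, was higher (0.30). Of 10 genes of fatty acid oxidation 3 were lower, *Cpt1a* by -0.49, *Hadhb* by -0.28 and *Acadm* by -0.21. With each clone alone against the controls, *Abca1* passed only in clone 4, and *Lipa* and *Acadm* only in clone 18. The background for these counts is that of the pooled comparison, 12.9% lower and 9.23% higher. All 10 knockout tumors also lay below each control tumor for *Elovl7*, *Fads3*, *Mylip*, *Gramd1c*, *Cpt1a* and *Hadhb*. For *Scarb1* 9 did so and for *Acadm* 7. *Lipa*, like *Me1*, lay above each control tumor in all 10.

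Markers of host and tumor cells were counted in the pooled comparison, in which 12.9% of all genes tested were lower and 9.23% higher. At an unadjusted p under 0.05 by limma, 5 T cell, 4 macrophage and 3 renal epithelial genes of the lists were lower. So were 1 fat cell gene and 1 skin gland and keratinocyte gene, whereas 1 macrophage and 1 renal epithelial gene were higher. The shares above belong to the adjusted threshold, and no share of all genes is given for these unadjusted counts. Of 5 T cell genes, 3 were lower in knockout tumors, and their summed level ran from 167 to 979 normalized counts in control tumors, from 164 to 293 in clone 4 and from 105 to 218 in clone 18, with *Cd4* and *Cd3g* highest. Control tumor 1 had the highest T cell level, 979. Of 6 macrophage genes, 3 were lower and *Cd14* was higher, and their sum ran from 70275 to 89896 in control tumors, from 57719 to 74772 in clone 4 and from 53763 to 70674 in clone 18, with *Mrc1* and *C1qa* highest. Of 7 renal epithelial genes, *Krt18* was lower and *Epcam* higher, with sums of 114281 to 138030, 98073 to 127977 and 104016 to 120127. Of 10 fat cell genes, *Lep* was lower, and of the 4 skin gland and keratinocyte genes in the table, *Krt79*, with *Krt5* and *Krt14* at 0 in most tumors. No endothelial, fibroblast, muscle or proliferation gene of the lists passed the pooled limma test, and at an unadjusted p under 0.05 there were 2 such genes, both of muscle and higher. The summed proliferation genes ran from 42575 to 59863 in control tumors, from 46234 to 61206 in clone 4 and from 43426 to 57265 in clone 18. The part of these cells in the values of the lipid synthesis genes was not tested.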

How the data were processed

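RNA from 15 Renca tumors was sequenced. According to the labels and the study's methods, the authors used TopHat2 for alignment to mm10, HTSeq for gene counts and DESeq for their normalization. Tool versions, gene annotation and the use of strand are not given in the sources used here. The deposited values are signal in these terms: counts divided by a size factor, with no sample pooled, rounded to 0.1. Whole reads were recovered from the deposited signal of each tumor, which gave 32924414 to 49099168 reads per tumor. Of the values up to 8000, 100% lay within 0.06 normalized counts of a whole number of reads. The fewest reads of a member in a tumor were 24, of *Elovl6*. Pairs of tumors within groups differed by more than sampling noise.

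Tests used limma 3.58.1 with a mean-variance trend (R 4.3.3) on log2(normalized count + 1) over the 18250 genes above 0 in at least 1 tumor, with Benjamini-Hochberg adjustment over all of them and a threshold of 0.05. The pooled comparison used 10 knockout and 5 control tumors and the comparisons of clones used a term per group. Two-sided exact permutation tests over tumors used the same log2 values, and 5 against 5 tumors cannot give less than 0.00794. Fold changes of low genes are understated by the added count. Alternatives were pseudocounts of 0.1 and 5, a minimum mean of 10, upper quartile and quantile scaling, centring of chromosome medians, limma without trend, leaving out each tumor, and count models on the recovered reads (DESeq2 1.42.0, edgeR 4.0.16). Genes were placed with GENCODE M21. All 28 members are described, and of each related pathway list at most the 4 genes with the largest difference past the threshold are named. The list of members and the pathway and marker lists were chosen with earlier results of these data known. Of the related pathway lists, that of SREBP processing is not reported here. The procedure was tested on simulated data.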

Additional observations from a re-analysis of the deposited data

Results flagged for a closer look

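In 4 of 84 groups of 5 tumors, a single tumor stood far from the other 4 of its group, about the number that chance gives (1 in 20 groups, or 4.2). In clone 4, tumor 9 had 2123.1 normalized counts of *Mvk* against 1672 to 1735 in the other tumors, and 356.1 of *Tm7sf2* against 258 to 284. Tumor 8 of clone 4 had 4856 counts of *Hsd17b7* against 3943 to 4143, and tumor 13 of clone 18 had 8538.4 counts of *Acly* against 9659 to 10081.

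The effects of the clones, which share their control tumors, differed in 2 genes by the test of clone 18 against clone 4: *Ebp* by 0.22 and *Scd1* by 0.41 on the log2 scale, both higher in 5 of 5 tumors of clone 18 than the mean of clone 4.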

How the results depend on the processing

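Counts of the members called moved with several settings. Limma without the trend left 6 genes lower in the pooled comparison, 5 in clone 4 and 8 in clone 18. Quantile normalization left 7 lower in clone 18. Centring of chromosome medians gave 7 in the pooled comparison and 11 in clone 18, and DESeq2 gave 7 in clone 4 and 12 in clone 18. The 9 genes lower in the pooled comparison became 5 without control tumors 1 and 2 and 4 without tumor 13 as well, the 6 of clone 4 became 3 under both settings and the 10 of clone 18 became 5, settings chosen after seeing the data. The 2 genes higher in clone 18 than in clone 4 became 0 by limma without the trend. With each tumor left out in turn, the genes lower ranged from 5 to 11 in the pooled comparison, from 4 to 8 in clone 4 and from 7 to 13 in clone 18, the genes higher in the pooled comparison from 0 to 1, and those higher in clone 18 than in clone 4 from 0 to 2. The cause of these shifts was not tested.

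*Insig1*, *Fdps*, *Fdft1* and *Sqle* stayed lower past the threshold in the pooled comparison under all 26 alternatives, and *Stard4* under 25. *Mvd* did so under 21, *Srebf2* under 13, *Fasn* under 12 and *Acaca* under 7. Upper quartile scaling and quantile normalization each left 6 genes lower, with log2 differences of *Fasn* of -0.44 and -0.43, and quantile normalization turned the split over all genes from 1684 higher and 2356 lower to 2265 higher and 1971 lower. edgeR called 8 members lower and DESeq2 10. Genes near 0 changed sign with a tumor left out: *Mvk* ranged from -0.024 to 0.060, *Idi1* from -0.062 to 0.084, *Hsd17b7* from -0.016 to 0.075 and *Dhcr7* from -0.040 to 0.14, and *Srebf1* was at 0.0078 without tumors 1, 2 and 13. No number in the labels links tumors of different groups. No paired analysis was possible because the groups share no animal or replicate number. *Elovl6*, at 24 reads in its lowest tumor, and *Tm7sf2*, at 146, had the fewest reads of the members.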
